A study of Danio rerio with 96 samples.

Results

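The libraries described here were 24 single zebrafish embryos, out of 96 whole-embryo libraries in the series, the others being pools of 5, 10 or 20 embryos. They were chosen by their labels: 8 embryos of an exposure that began on 13 December (batch 3) and 16 embryos of an exposure that began on 12 December (8 in batch 1 and 8 in batch 2). The embryos are Danio rerio, collected at 120 hours post fertilization after 5 days in 0.1% dimethyl sulfoxide (DMSO), the solvent used as the vehicle control in chemical testing. No embryo received another chemical, so the contrast is between controls of neighbouring days. Embryos of 12 December were extracted on 17 December and those of 13 December on 18 December. The labels give no strain, parents, sex or dish, so p-values measure only the spread between these libraries, which may be technical. The 13 December exposure had 1 extraction batch of single embryos, which also filled a library plate column of its own, so exposure day, extraction day, batch and plate column cannot be told apart.

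TempO-Seq reads a fixed panel of probe targets. For each target, paired detector oligonucleotides anneal next to each other on the RNA, are ligated, amplified and sequenced, so a count belongs to a short target and not to a whole transcript. A whole hatched larva of this stage holds all tissues, so a level is an average over gut, liver, muscle, brain and other organs, and fewer cells of a type cannot be told apart from less RNA per cell. Single larvae also carry their own genotype, size and state, which a pool averages. The deposited table gives each target a row but no gene or probe name, so targets are called by row number, counted from 1 in the table's order, and no role, tissue or pathway is given for any of them. For the same reason the whole-embryo label was not checked against tissue markers.

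Total counts per library averaged 4057180 ± 624837 (SD, n = 8) on 13 December and 4071220 ± 597470 (SD, n = 16) on 12 December, a difference within the spread (exact two-sided permutation p = 0.972). Levels are given as CPM, the counts after scaling of each library by its total and TMM factor, and 3 counts, the most that a reading of 0 allows, came to 0.561 CPM in the deepest library and 0.899 CPM in the shallowest before that scaling. Such limits cover counting error only.

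Several libraries stood apart before any row was tested. On the first principal axis of log2 CPM, with 20.7% of the variance over 2692 rows, embryos 5 to 8 of batch 1 lay between -59.6 and -30.9 and embryo 8 of batch 2 at -30.8, while the other 19 embryos lay between -7.34 and 23.5. On the second axis, with 9.77%, the 8 embryos of 13 December lay between 9.97 and 20.2. On this axis 12 of the 16 embryos of 12 December lay below 0, but embryo 7 of batch 1 lay at 12.6 and embryo 7 of batch 2 at 18.0, within the range of the 13 December embryos, and embryo 8 of batch 1 lay above it at 20.8. The third axis, with 6.91%, parted the 13 December embryos themselves, with embryos 4, 6, 7 and 8 between 13.1 and 28.3 and embryos 1, 2, 3 and 5 between -21.7 and -9.87. Embryo 7 of batch 2 lay at -19.3 on it, beside the latter 4.

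**Figure D1:**
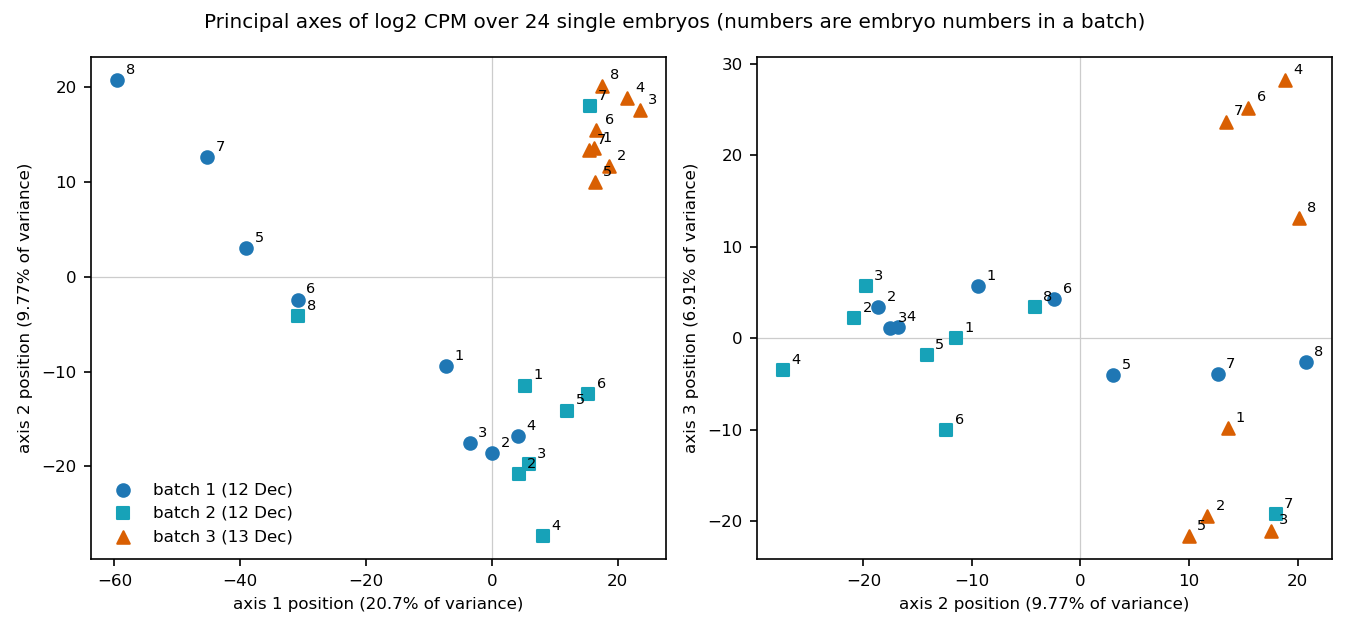
Positions of the 24 single embryos on principal axes 1 and 2 (left) and 2 and 3 (right) of log2 CPM over 2692 rows, with symbols for the batch and numbers for the embryo. Embryos 5 to 8 of batch 1 and embryo 8 of batch 2 lie apart on axis 1, the 13 December embryos (triangles) form 2 sets of 4 on axis 3, and embryo 7 of batch 2 lies beside 1 of these sets.

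The exposures differed in 234 of 2692 rows tested (8.69%) by edgeR's quasi-likelihood test at a Benjamini-Hochberg adjusted p below 0.05, with batch 3 set against the mean of batches 1 and 2. Such rows are said to be called. Of these, 114 (4.23% of rows tested) were higher and 120 (4.46%) lower on 13 December. The typical difference was small, with a median absolute log2 change of 0.34 over all rows. Over 2-fold differences occurred in 299 rows, and 655 rows had an unadjusted p below 0.05. Between batches 1 and 2, which shared exposure and extraction day, the same fit called 3 rows (0.111%), 1 higher (0.0371%) and 2 lower (0.0743%) in batch 2, with 537 rows at an unadjusted p below 0.05 and a median absolute log2 change of 0.36. In that contrast, which has fewer embryos, 309 rows differed over 2-fold. By size of change, then, the batches of 1 exposure differed about as much as the exposures did.

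More rows were called against batch 1 than against batch 2, a difference in counts of calls and not a test. Against batch 1 alone the 13 December embryos differed in 493 rows (18.3%), 218 higher (8.1%) and 275 lower (10.2%). Against batch 2 alone they differed in 5 rows (0.186%), rows 2293 and 2439 higher (0.0743%) and rows 824, 992 and 2047 lower (0.111%), with 298 rows at an unadjusted p below 0.05. Setting aside embryos 5 to 8 of batch 1, the exposure contrast called 66 rows, 41 higher and 25 lower, of which 50 were among the 234, and all 234 kept their direction. The 234 were chosen on a contrast that holds the same remaining embryos, so their direction was largely fixed in advance. Leaving out 1 embryo of 13 December lowered the count to 112 without embryo 4, 124 without embryo 6, 127 without embryo 8 and 152 without embryo 3. When batch was a random effect, limma gave 6 called rows, and on the 3 batch sums edgeR called 0, with 185 at an unadjusted p below 0.05, in fits where 1 batch stands for the 13 December exposure.

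Called rows were separated by how many embryos carried them. A row was taken as driven by a few embryos when the difference of mean CPM kept less than 0.5 of its size, or turned, once the highest embryos of the higher exposure (2 of 8 or 4 of 16) were set aside. It was taken as shifted in most embryos when it passed that rule, at least 7 of 8 embryos of 13 December lay beyond the 12 December median and at least 13 of 16 lay beyond the 13 December median the other way. These classes describe the embryos that gave the calls and are no further test. Of the 234 called rows 162 were shifted in most embryos (85 higher and 77 lower), 66 were driven by a few (23 higher and 43 lower) and 6, all higher, lay between. Among all 2692 rows tested 15.7% met the rule for most embryos and 76.3% the rule for a few. A small difference is easily lost when the highest embryos are set aside, so rows with little difference also meet the rule for a few. Of the 2053 rows that met it 1987 were not called, with a median absolute log2 change of 0.25.

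In the median, called rows shifted in most embryos had a smaller change than those driven by a few. Their median absolute log2 change was 0.84 and their median count level 82.3 CPM, against 1.27 and 52.1 CPM in rows driven by a few. A level in CPM depends on the probe as well as on the RNA. All 162 had the same sign against batch 1 and against batch 2, and in 157 of them the change against each batch was at least 0.5 of the pooled one. Of the 66 rows driven by a few, 66 had the same sign and 49 reached that size. The exposure contrast averages those 2 contrasts in the same embryos, so agreement in sign was largely fixed by choosing rows on it. Over all rows tested, 420 of the 422 that met the rule for most embryos had the same sign and 377 reached that size. For the 2053 that met the rule for a few, the counts were 1304 and 762. Of the 162 called rows 147 were called against batch 1 alone and 4 against batch 2 alone, and of the 66 rows 63 and 1. A stricter share of the difference, with at least 2/3 kept, left 97 rows shifted in most embryos and put 134 among those driven by a few.

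The greatest rises among rows shifted in most embryos belonged to rows with little signal on 12 December. Row 1469 ran from 2.59 to 157 CPM on 13 December (median 47.4) and from 0 to 21.8 CPM on 12 December (median 0.803), a log2 change of 4.68 ± 0.79 (SE; edgeR adjusted p = 0.00188). Its 8 embryos were not alike: embryos 4, 6, 7 and 8 held 144, 157, 121 and 90.03 CPM, and embryos 1, 2, 3 and 5 held 4.76, 4.69, 2.59 and 3.96 CPM. All 8 lay above the 12 December median, which is why the rule counts them, but the 4 lower ones lay within the range of 12 December. Row 305 had the same 4 high and 4 low embryos, though not the same order within them. It ran from 2.44 to 66.2 CPM (median 23.2) against 0 to 10.1 CPM (median 1.14), a change of 3.51 ± 0.63 on the log2 scale (edgeR adjusted p = 0.00259). Its level was between 37.4 and 66.2 CPM in embryos 4, 6, 7 and 8 of 13 December and at most 9.08 CPM in the other 4.

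Rows 1470, 811 and 767 rose in more of the embryos. Row 1470 ran from 8.401 to 44.6 CPM on 13 December (median 23.8) and from 0 to 11.8 CPM on 12 December (median 0.615; log2 change 3.13 ± 0.64, edgeR adjusted p = 0.00619). Only embryo 7 of batch 2 reached into the 13 December range, at 11.8 CPM. Row 811 held 17.6 to 66.5 CPM on 13 December (median 37.2) and 0 to 43.95 CPM on 12 December (median 0.496), a log2 change of 3.08 ± 0.80 (edgeR adjusted p = 0.0205). Embryos 6 and 7 of batch 2, at 28.6 and 43.95 CPM, lay within the 13 December range, and the other 14 embryos of 12 December were below it. Row 767 was near 0 in 14 embryos of 12 December and in embryos 1 and 2 of 13 December, and held 20.5 to 33.2 CPM in the other 6 of 13 December. Embryo 7 of batch 1 and embryo 7 of batch 2 had 12.2 and 17.9 CPM, and the log2 change was 3.25 ± 1.01 (edgeR adjusted p = 0.0445).

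Row 2439 was called against batch 2 and not against batch 1. It ran from 0.669 to 21.8 CPM on 13 December (median 8.23), from 0 to 36.99 CPM in batch 1 (median 1.06) and from 0 to 0.521 CPM in batch 2, where 6 of 8 embryos had no count. Its fitted log2 change of 3.60 ± 0.90 (edgeR adjusted p = 0.0172) depends on the prior count used for batch 2, and against batch 1 the change was 0.82 (edgeR adjusted p = 0.596). With embryos 5 to 8 of batch 1 left out, all 6 of these rises (rows 1469, 2439, 305, 767, 1470 and 811) were still called, with edgeR adjusted p-values from 0.00315 to 0.031. The log2 changes of rows 2439, 767, 1470 and 811 were then larger, at 4.74, 4.81, 4.23 and 4.58. In each of these 4 rows the highest embryo of batch 1 was among those left out, so their calls in that fit are no check. Rows 1469 and 305 had changes of 4.33 and 3.26.

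**Figure D2:**
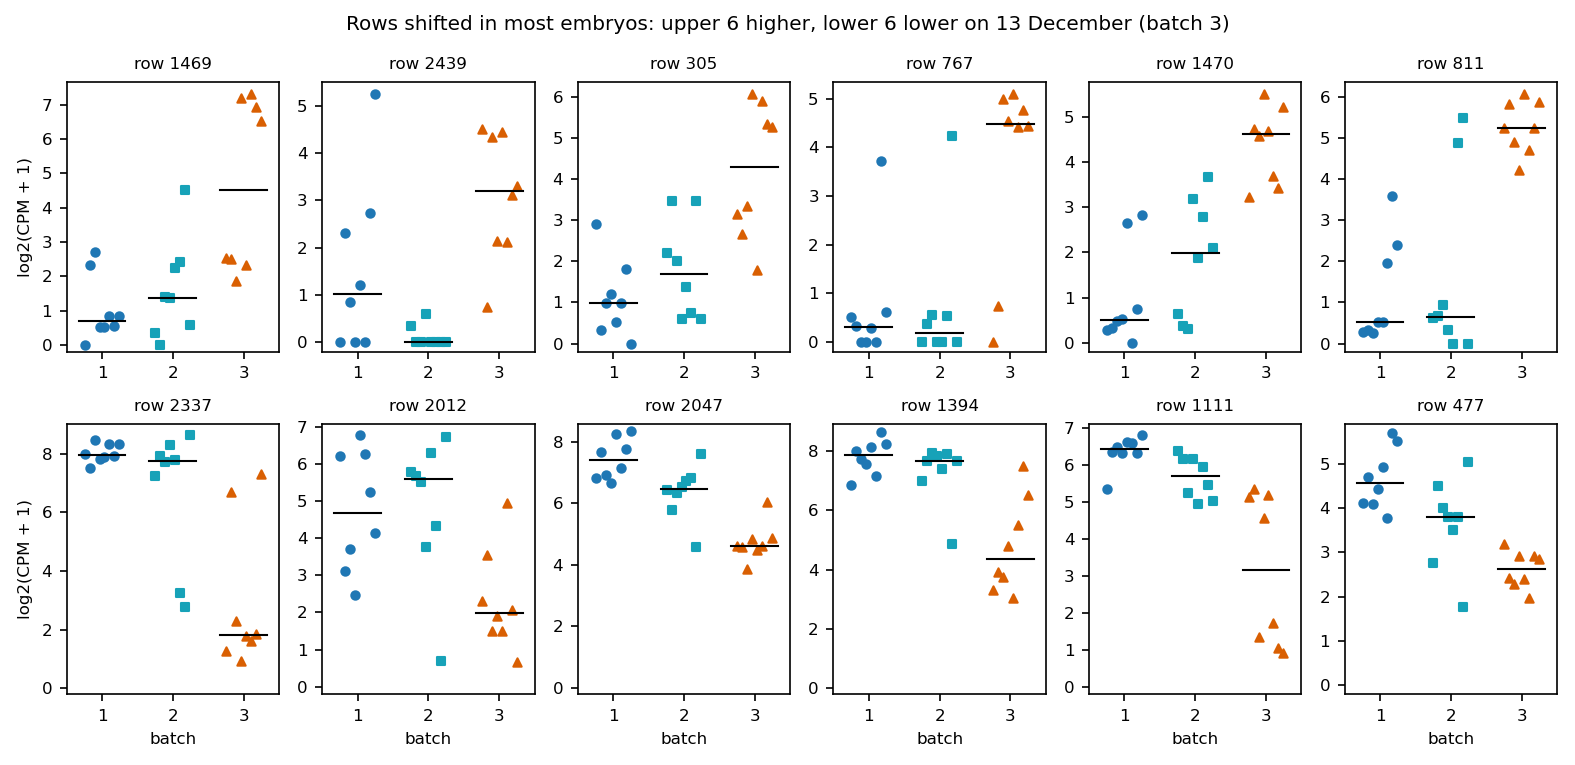
log2(CPM + 1) of each single embryo by batch for the 12 rows with the greatest changes among those shifted in most embryos, with horizontal lines at the batch medians. Batch 3 is the 13 December exposure, and rows 1469 and 1111 show 2 sets of embryos within it.

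The greatest falls belonged to rows that were well above 0 on 12 December. Row 2337 ran from 0.901 to 159 CPM on 13 December (median 2.54) and from 5.76 to 397 CPM on 12 December (median 238), a log2 change of -2.73 ± 0.86 (edgeR adjusted p = 0.0455). Its values fell into a low and a high set: 6 embryos of 13 December held at most 3.89 CPM and embryos 2 and 8 held 102 and 159 CPM. On 12 December embryos 6 and 7 of batch 2 held 8.401 and 5.76 CPM and the other 14 held at least 149.5 CPM. In the fit lacking embryos 5 to 8 of batch 1, its log2 change was -2.72 (edgeR adjusted p = 0.121), of the same size and no longer called.

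Row 2047 had the smallest adjusted p of the 6 named falls. It ran from 13.5 to 64.3 CPM on 13 December (median 23.4) and from 22.7 to 327 CPM on 12 December (median 112), a log2 change of -2.24 ± 0.33 (edgeR adjusted p = 0.000613). Batch 3, the 13 December exposure, was lower than batch 1, with a log2 change of -2.76 (edgeR adjusted p = 5.95e-05), and than batch 2, with -1.72 (edgeR adjusted p = 0.0388). The groups overlapped through embryo 7 of 13 December, at 64.3 CPM, and embryos 2 and 7 of batch 2, at 54.2 and 22.7 CPM. When embryos 5 to 8 of batch 1 were left out, row 2047 was still called (edgeR adjusted p = 0.00343).

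Rows 1394 and 477 fell in nearly all embryos. Row 1394 ran from 7.32 to 178 CPM on 13 December (median 20.4) and from 28.2 to 398 CPM on 12 December (median 208; log2 change -2.11 ± 0.50, edgeR adjusted p = 0.0128). Embryo 7 of batch 2 was the low value of 12 December and the other 15 held at least 115 CPM, a level that embryo 7 of 13 December passed. Row 477 held 2.92 to 8.12 CPM on 13 December (median 5.26) and 2.42 to 51.1 CPM on 12 December (median 16.3), a log2 change of -1.86 ± 0.37 (edgeR adjusted p = 0.0054). Embryos 1 and 7 of batch 2, at 5.79 and 2.42 CPM, were the only ones of 12 December that did not lie above the 13 December range, and the row was still called without embryos 5 to 8 of batch 1 (edgeR adjusted p = 0.0221).

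Rows 1111 and 2012 fell unevenly. Row 1111 ran from 0.883 to 39.5 CPM on 13 December (median 12.5) and from 29.99 to 112 CPM on 12 December (median 74.8), a log2 change of -1.96 ± 0.53 (edgeR adjusted p = 0.0266). Embryos 3, 6, 7 and 8 of 13 December held at most 2.297 CPM and the other 4 at least 22.8 CPM, 3 of them inside the range of 12 December. Row 2012 ran from 0.588 to 29.9 CPM on 13 December (median 2.93) and from 0.606 to 108 CPM on 12 December (median 40.8; log2 change -2.65 ± 0.74, edgeR adjusted p = 0.0291), and its groups overlapped over much of that range. Without embryos 5 to 8 of batch 1 the edgeR adjusted p was 0.0791 for row 1111, 0.0984 for row 2012 and 0.0517 for row 1394, with log2 changes of -1.88, -2.28 and -1.98.

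In 5 rows no embryo of 13 December overlapped with any of 12 December (0.186% of rows tested), and all 5 were called. These rows, 303, 511, 992, 2293 and 2296, were singled out after their values were seen. Row 303 held 11.6 to 28.2 CPM on 13 December (median 19.4) and 0 to 10.9 CPM on 12 December (median 0.547), a log2 change of 2.97 ± 0.74 (edgeR adjusted p = 0.0167). Unlike row 1469 it was present in all 8 embryos at a like level. Row 511 held 167 to 239 CPM on 13 December (median 192) and 60.4 to 158 CPM on 12 December (median 105; log2 change 0.94 ± 0.16, edgeR adjusted p = 0.00188). Row 992 was the fall among them, at 12.9 to 45.4 CPM on 13 December (median 30.9) and 51.8 to 126 CPM on 12 December (median 70.2; log2 change -1.33 ± 0.23, edgeR adjusted p = 0.00188). Setting aside embryos 5 to 8 of batch 1, rows 511, 992 and 2293 were still called (edgeR adjusted p = 0.0112, 0.00862 and 0.0152), and rows 303 and 2296 were not (edgeR adjusted p = 0.064 and 0.091).

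Some of the most abundant targets of the panel moved by small steps in most embryos. Row 2293 held 42619 to 51262 CPM on 13 December (median 47077) and 28512 to 39485 CPM on 12 December (median 35038), 1.35-fold higher (log2 change 0.43 ± 0.08, edgeR adjusted p = 0.00259). Row 2296, described among the rows without overlap, was also abundant, while rows 2999, 2297 and 2318 had overlapping groups. Rows 2999, 2297 and 2318 had medians of 27315, 22665 and 17857 CPM on 13 December against 21162, 17813 and 14570.2 CPM on 12 December, and were 1.32-fold, 1.44-fold and 1.23-fold higher (edgeR adjusted p = 0.0374, 0.0229 and 0.0371). With embryos 5 to 8 of batch 1 left out, these 3 were no longer called (edgeR adjusted p = 0.18, 0.0774 and 0.12). The 10 most abundant rows of a library took 29.97% ± 0.83 of its counts on 13 December (SD, n = 8) and 27.6% ± 2.10 on 12 December (SD, n = 16), a difference of 2.33 percentage points (exact two-sided permutation p = 0.00368, adjusted over 3 library values 0.00553). The permutation moved embryos without regard to batch, so it takes embryos of 1 batch as independent.

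The 23 rises driven by a few embryos rested on few of the 8 embryos of 13 December. Embryo 4 was among the top 2 in 12 of the 23, embryos 6 and 7 in 7 each, and embryo 5 in 1. Embryo 3 was among them in 6 rows, embryos 2 and 8 in 5 each and embryo 1 in 3. The mean was 5.75 rows per embryo, so embryos 6 and 7 lay near it. Row 1555 ran from 0.8401 to 46.8 CPM on 13 December (median 6.76) and from 0 to 6.68 CPM on 12 December (median 0.222; log2 change 3.92 ± 0.90, edgeR adjusted p = 0.0115), with embryos 4, 6 and 7 at 46.8, 31.9 and 37.9 CPM and the other 5 at most 6.77 CPM. Row 2021 ran from 1.34 to 100.7 CPM on 13 December (median 8.897) and from 0.199 to 11.7 CPM on 12 December (median 0.851; log2 change 3.67 ± 0.72, edgeR adjusted p = 0.00517). Embryos 4, 7 and 8 held 100.7, 59.8 and 30.3 CPM, above all 16 embryos of 12 December, and the other 5 lay within the range of 12 December. Row 163 ran from 2.44 to 102 CPM on 13 December (median 9.72) and from 0 to 8.85 CPM on 12 December (median 2.45; log2 change 3.48 ± 0.68, edgeR adjusted p = 0.00517), and in this row embryos 4, 6, 7 and 8 were the only ones above 12 December.

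Row 2299 was high in embryos 1, 2, 3 and 5 of 13 December and also in embryo 8, so it did not follow the 2 sets of the third axis. Row 2299 kept 0.497 of its difference, just under the limit of 0.5, and so counts as driven by a few. It ran from 60.4 to 7702 CPM on 13 December (median 2845) and from 19.7 to 2511 CPM on 12 December (median 36.9), a log2 change of 3.10 ± 0.94 (edgeR adjusted p = 0.0413). Embryos 1, 2, 3, 5 and 8 of 13 December held at least 2356 CPM, and embryos 4, 6 and 7 held 60.4, 78.9 and 68.7 CPM. High values occurred on 12 December too, at 1629, 2447 and 2511 CPM in embryos 1, 5 and 7 of batch 2 and at 716 and 423 CPM in embryos 5 and 8 of batch 1, so what differed was how many embryos were high, 5 of 8 against 5 of 16, and their level. In the fit lacking embryos 5 to 8 of batch 1, rows 2021, 163 and 2299 were still called (edgeR adjusted p = 0.00896, 0.0276 and 0.0355) and row 1555 was not (edgeR adjusted p = 0.0517). The log2 changes of rows 2021 and 2299 were then larger, at 4.32 and 4.34, and the highest embryo of batch 1 in each was among those left out.

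**Figure D3:**
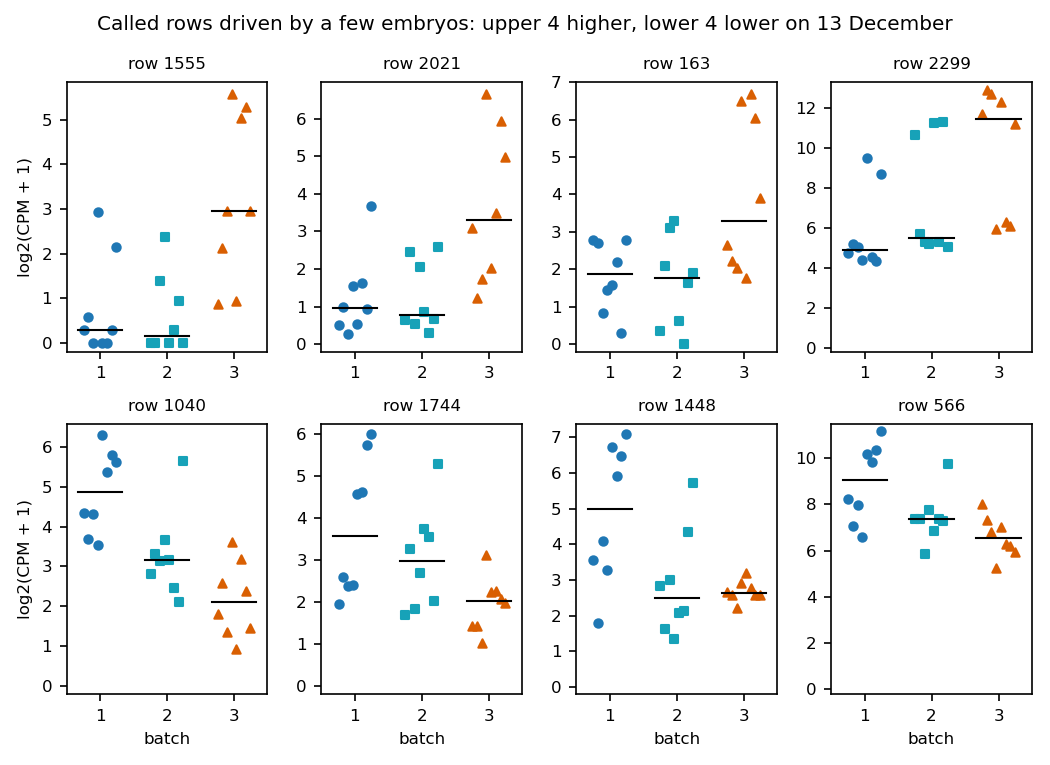
log2(CPM + 1) of each single embryo by batch for the 8 called rows with the greatest changes among those driven by a few embryos, with lines at the batch medians. The upper rows rise through some embryos of batch 3 (13 December), and in the lower rows some embryos of batch 1, and 1 of batch 2, are high.

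The 43 falls driven by a few embryos had most of their high values in libraries that stood apart. In 39 of the 43 at least 3 of the 4 highest embryos of 12 December were among embryos 5 to 8 of batch 1, and in 16 all 4 were. Embryo 8 of batch 2 was among the highest 4 in 21 of the 43. Row 1448 ran from 3.63 to 8.23 CPM on 13 December (median 5.17) and from 1.56 to 135 CPM on 12 December (median 9.65; log2 change -2.16 ± 0.66, edgeR adjusted p = 0.0426). Embryos 5 to 8 of batch 1 held 104, 59.2, 87.3 and 135 CPM, and the 13 December embryos lay within the range of the others. Row 566 had the same form at a higher level, with 1171, 911, 1306 and 2329.7 CPM in those 4 embryos and 847 CPM in embryo 8 of batch 2, against 36.9 to 261 CPM on 13 December (median 94.5; 12 December median 189; log2 change -1.94 ± 0.54, edgeR adjusted p = 0.0296).

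Rows 1040 and 1744 also had their highest values there. Row 1040 ran from 0.915 to 11.3 CPM on 13 December (median 3.37) and from 3.33 to 78.2 CPM on 12 December (median 11.8), 4.67-fold lower (edgeR adjusted p = 0.0142). Row 1744 ran from 1.04 to 7.66 CPM (median 3.05) against 2.21 to 62.5 CPM (median 7.05), 4.67-fold lower (edgeR adjusted p = 0.0328). When embryos 5 to 8 of batch 1 were left out, the median log2 change of the 43 falls went from -1.12 to -0.62, and rows 1448, 566, 1040 and 1744 had edgeR adjusted p-values of 0.412, 0.252, 0.0942 and 0.318. In that fit 4 of the 66 rows driven by a few and 45 of the 162 rows shifted in most embryos were called, and the median absolute log2 change of the latter went from 0.84 to 0.72.

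Ranks give a few extreme embryos little weight. When the 24 values of each row were replaced by normal scores of their ranks, limma called 215 rows, 127 higher and 88 lower. It called 16 of the 66 rows that edgeR called as driven by a few and 144 of the 162 called as shifted in most embryos. Over all rows tested it called 18 of the 2053 that met the rule for a few and 196 of the 422 that met the rule for most. The rule for most counts the same embryos beyond a median, so a rank test favours that class and lends it no support.

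Large differences carried by a few embryos also occurred without a call. Row 1558 ran from 0 to 57.9 CPM on 13 December and from 0 to 22.7 CPM on 12 December, 5.34-fold higher (edgeR adjusted p = 0.0924), with embryos 1, 2 and 3 of 13 December at 30.8, 42.8 and 57.9 CPM. Row 2359 had 1 high embryo of 13 December, embryo 4, at 73.9 CPM against at most 10 CPM in the other 7 (edgeR adjusted p = 0.0775). Rows 579 and 2202 had low and high embryos in both exposures. Row 579 was at 52.8 to 55.4 CPM in embryos 1, 5 and 6 of 13 December and at 1710.0 to 5245 CPM in the other 5, while on 12 December it spanned 16.97 to 2828 CPM (edgeR adjusted p = 0.145). Row 2202 was at 1.77 to 3.08 CPM in 6 embryos of 13 December and at 36.6 and 111 CPM in embryos 3 and 4, and on 12 December 8 of 16 embryos held between 87.5 and 248 CPM (edgeR adjusted p = 0.204). Rows 2599 and 1364 were 6.43-fold and 4.37-fold lower on 13 December (edgeR adjusted p = 0.0786 and 0.0985). In the pools described below, row 1558 was called as higher on 13 December (2.84-fold, edgeR adjusted p = 0.0495). Rows 2359, 579, 2202, 2599 and 1364 were not called there.

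Taken embryo by embryo, the 162 rows shifted in most embryos give each larva a position between the exposures. A row was counted on the 13 December side of an embryo when its log2 CPM lay beyond the midpoint of the exposure medians. The 8 embryos of 13 December had 72.2% to 95.1% of the rows on their side, batch 1 had 6 to 34 of the 162 on it (at most 20.99%), and 7 embryos of batch 2 had 5.56% to 32.7%. Embryo 7 of batch 2 had 94 of 162 rows (58.02%) on the 13 December side, between the exposures. These rows were chosen by the same embryos, so the shares describe the embryos and support no call. Setting aside embryo 7 of batch 2 alone raised the rows called against batch 2 from 5 to 26. Leaving out any 1 of the 24 embryos gave 0 to 26 such rows, so this was the highest count. Within batch 2 it was the embryo nearest to those of 13 December in these shares. More calls without it were thus largely fixed in advance and are no check. A further setting, chosen after the data were seen, lacked embryos 7 and 8 of batch 2 and embryos 5 to 8 of batch 1. In that setting edgeR called 163 rows between the exposures, 98 higher and 65 lower. Whether embryo 7 of batch 2 belongs to the exposure on its label was not tested.

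**Figure D4:**
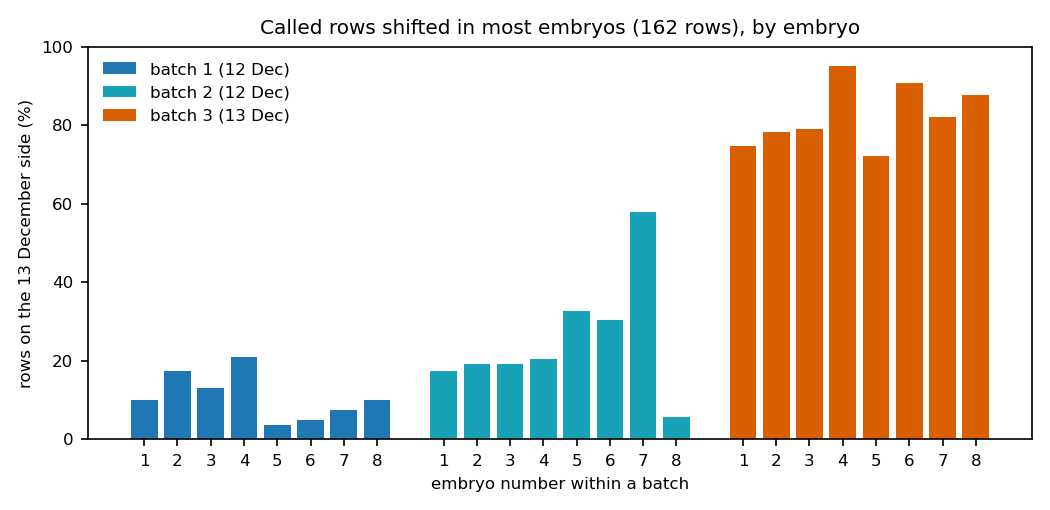
Share of the 162 called rows shifted in most embryos that lay on the 13 December side of the midpoint between the exposure medians, in each single embryo, by batch. The 13 December embryos stand at 72.2% to 95.1%, and embryo 7 of batch 2 (12 December) stands at 58.02%, above the other 15 embryos of its exposure.

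The division of the 13 December embryos on the third axis was also seen in the number of rows detected. Rows with at least 5 counts numbered 2743 to 2894 in embryos 4, 6, 7 and 8 and 2570 to 2679 in embryos 1, 2, 3 and 5, against 2487 to 2663 in the 16 embryos of 12 December. The exposures differed in the mean, at 2719.6 ± 122.8 rows (SD, n = 8) and 2584.7 ± 53.6 rows (SD, n = 16; exact two-sided permutation without regard to batch p = 0.00199, adjusted over 3 library values 0.00553). With a minimum of 10 counts the difference went from 134.9 to 63.7 rows and its adjusted exact permutation p was 0.108. Total counts ran from 3546873 to 5317549 in embryos 4, 6, 7 and 8 and from 3441281 to 4209728 in embryos 1, 2, 3 and 5, and the part of depth in the division was not tested. Row 321, which was not called and was singled out after its values were seen, divided the 13 December embryos in another way, with embryo 8 among the low ones: embryos 4, 6 and 7 of 13 December held 253, 295 and 175 CPM, the other 5 held at most 7.56 CPM, and 12 of 16 embryos of 12 December held at least 120.2 CPM.

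Variability between embryos was compared as the biological coefficient of variation, taken from the common dispersion that edgeR gives over the 2692 rows (its root). It was 50.8% within the 13 December batch, 62.5% in batch 1, 58.6% in batch 2 and 52.3% in batch 1 without embryos 5 to 8. Of 1998 rows with a mean count of at least 50, 3 rows (0.15%) differed in absolute deviation from the batch median by limma (267 at an unadjusted p below 0.05), and all 3 were more variable on 13 December. Row 1111 had an SD of log2 CPM of 2.24 on 13 December, 0.45 in batch 1 and 0.57 in batch 2 (limma adjusted p = 0.00463). Row 954 had SDs of 1.12, 0.17 and 0.36 (limma adjusted p = 0.00857) and row 1305 of 1.42, 0.37 and 0.32 (limma adjusted p = 0.0143). In rows 1111, 954 and 1305 the highest 13 December embryos reached 39.5, 263 and 116 CPM, inside the 12 December range, while the lowest were at 0.883, 36.5 and 7.32 CPM. Without embryos 5 to 8 of batch 1 limma called 0 rows (151 at an unadjusted p below 0.05), and leaving out embryo 1, 4, 6 or 7 of 13 December also gave 0 (183 to 193 at an unadjusted p below 0.05). Deviations from the batch mean in place of the median gave 41 rows, 28 more variable and 13 less variable on 13 December.

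The 3 rows called between the batches of 1 exposure were rows 824, 78 and 981. Row 824 held 56.4 to 354 CPM in batch 2 (median 159), 38.1 to 96.3 CPM in batch 1 (median 62.7) and 31.2 to 86.4 CPM on 13 December (median 54.5), so that batch 2 was the high group (log2 change of batch 2 against batch 1 1.54, edgeR adjusted p = 0.0388). Row 78 was lower in batch 2 than in batch 1 (median 37.1 against 77.05 CPM, log2 change -1.13, edgeR adjusted p = 0.0388), with 13 December at 43.9 CPM. Row 981 was lower in batch 2 (median 756 against 1245 CPM, log2 change -0.69, edgeR adjusted p = 0.0388) and its 13 December median of 712 CPM was close to that of batch 2. Rows 824 and 981 were also called between the exposures (edgeR adjusted p = 0.0372 and 0.00852), as driven by a few and as shifted in most embryos. Yet row 824 had a log2 change of -0.15 against batch 1 alone (edgeR adjusted p = 0.765). Row 981 had -0.22 against batch 2 alone (edgeR adjusted p = 0.611). Calls between the exposures thus include rows in which 1 batch of 12 December stood apart. The number of rows called between batches 1 and 2 was 209 by edgeR without embryo 8 of batch 2 and 0 without embryos 5 to 8 of batch 1 (144 at an unadjusted p below 0.05). Leaving out any other single embryo gave 0 to 63 called rows, and in the settings with 0 between 389 and 539 rows had an unadjusted p below 0.05.

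Pools of the same exposures gave libraries that the single-embryo contrast had not used. Pools of 10 embryos of 13 December (8 libraries in 1 batch) were set against pools of 5 embryos of 12 December (24 libraries in 3 batches). The former were extracted on 18 December in plate column 12, the latter on 17 December in plate columns 8, 9 and 10. Pool size, extraction day, batch and plate column thus differ along with the exposure and cannot be told apart from it. Between them 146 of 2759 rows were called (5.29%), 65 higher (2.36%) and 81 lower (2.94%) on 13 December. The count moved to 88, 22 and 482 without pool5 batch 1, 2 and 3. Across 2667 rows, which are not independent replicates, the log2 changes correlated with those of single embryos at r = 0.41 and rho = 0.45. In the same direction 40 rows were called in both, which is 17.2% of the 233 called in single embryos and 27.8% of the 144 called in pools, and 1 row was called in opposite directions.

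Of the rises shifted in most embryos 71 of 85 were higher in the 13 December pools and 17 were called there, with a median log2 change of 0.20 in pools against 0.83 in single embryos. Of the falls shifted in most embryos 65 of 77 were lower in pools and 7 were called, with medians of -0.16 and -0.84. Over all rows tested in both, 65.05% of those higher in single embryos were higher in pools and 72.3% of those lower were lower. Their median log2 changes were 0.089 in pools against 0.33 in single embryos, and -0.15 against -0.34. Changes were thus smaller in pools over all rows too. Called rows were chosen for their change in single embryos, so a smaller change in pools was partly fixed in advance. The shares called in pools in the same direction were 4.12% and 5.66% over all rows, against 20% of these rises and 9.09% of these falls. The rises driven by a few were higher in pools in 13 of 22 rows, with 2 called and medians of 0.12 and 1.99. All 43 falls driven by a few were lower in pools, with 12 called. The 12 December side of the pool contrast has its own libraries apart, samples 5 to 8 of pool5 batch 1, and without them 1 of the 43 falls was called and 40 were lower. In the same fit 67 of the 85 rises shifted in most embryos were higher, with 12 called, and 61 of the 77 falls were lower, with 4 called. Over all rows the shares were then 58.7% for those higher in single embryos and 69.6% for those lower. Called in pools in the same direction were 43 of all 1370 rows higher in single embryos and 32 of all 1311 lower.

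**Figure D5:**
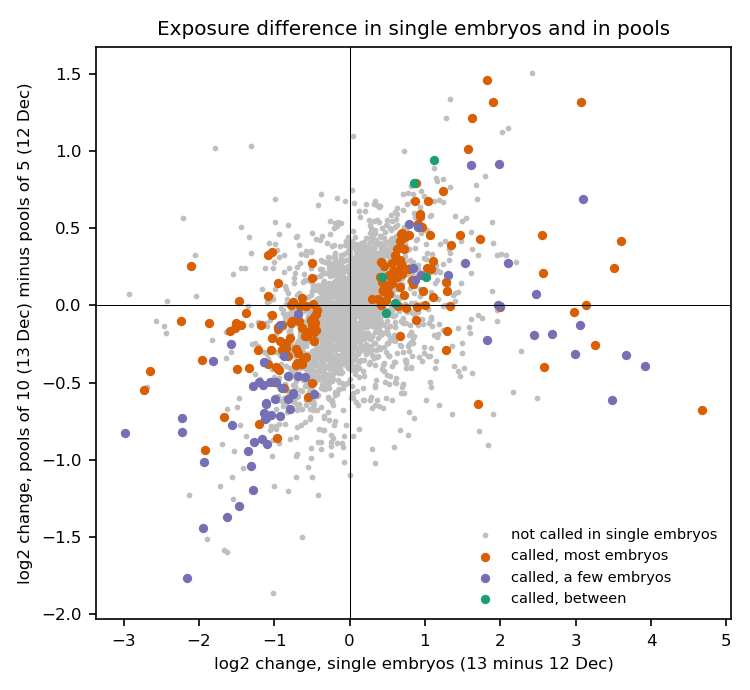
log2 change between exposures in single embryos (x axis) and in pools (y axis; pools of 10 of 13 December minus pools of 5 of 12 December) for 2667 rows tested in both, with rows called in single embryos coloured by class. Rows with large rises in single embryos lie mostly near 0 on the y axis, and row 1469, at 4.68 and -0.68, lies farthest right.

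Rows 622, 2653 and 2294 were called as higher in both contrasts. Row 622 ran from 10.98 to 141 CPM in single embryos of 13 December (median 65.1) and from 0.905 to 77.7 CPM in those of 12 December (median 16.1; 3.54-fold, edgeR adjusted p = 0.0291). In pools it was 77.3 ± 21.8 CPM (SD, n = 8) against 33.7 ± 30.02 CPM (SD, n = 24), 2.76-fold higher (edgeR adjusted p = 0.0275). The pools of 12 December were uneven, at 13.2, 27.4 and 60.5 CPM in pool5 batches 1, 2 and 3, so batch 3 lay close to the 13 December pools. Rows 2653 and 2294 were 3.75-fold and 3.08-fold higher in single embryos (edgeR adjusted p = 0.0196 and 0.0126) and 2.49-fold and 2.33-fold higher in pools (edgeR adjusted p = 0.0275 and 0.0291). In pool5 batch 3 they were at 37.7 and 989 CPM, against 48.8 and 1166 CPM in the 13 December pools, and in pool5 batch 1 at 9.497 and 289 CPM. For these rows the 13 December pools were not tested against pool5 batch 3 alone. In rows 622, 2653 and 2294 embryos 5, 6 and 7 of batch 2 were higher than embryos 1 to 4 of their batch. They held 67.7, 77.7 and 47.9 CPM in row 622, 87.1, 29.5 and 19.4 CPM in row 2653, and 1625, 1271 and 787 CPM in row 2294. Setting aside embryos 5 to 8 of batch 1, these 3 rows were not called in single embryos (edgeR adjusted p = 0.0968, 0.0698 and 0.0712).

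Of the rows driven by a few that were lower in both contrasts, rows 1448, 566 and 201 were 3.402-fold, 2.71-fold and 2.59-fold lower in pools (edgeR adjusted p = 0.03, 0.0386 and 0.0338). Their pool5 levels were uneven, at 19.95 ± 27.6, 335 ± 532 and 26.9 ± 25.1 CPM (SD, n = 24), against 4.43 ± 0.799, 96.5 ± 21.9 and 9.17 ± 2.93 CPM (SD, n = 8) in pools of 10. In pool5 batch 3 alone they averaged 5.09, 109 and 11.95 CPM, close to the pools of 10, and in pool5 batch 1 36.3, 638 and 41.9 CPM. Row 201 in single embryos ran from 3.83 to 15.2 CPM on 13 December and from 4.31 to 107 CPM on 12 December, highest in embryos 5 to 8 of batch 1 and embryo 8 of batch 2 (3.08-fold lower, edgeR adjusted p = 0.0177).

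Several rows with the greatest changes in single embryos had small changes in pools. The difference between the pool contrast and the single-embryo contrast was tested in 1 edgeR fit over 56 libraries, added after the data were seen. It was called in 82 of 2849 rows (2.88%), 36 with the higher value in pools (1.26%) and 46 with the lower (1.61%). That fit held 1 dispersion per row for pools and single embryos alike. Where single embryos varied more than pools, its p-values are therefore too small. Row 1394, for one, was at 47.8 ± 59.4 CPM in single embryos of 13 December (SD, n = 8). Row 1469 was at 2.87 ± 1.83 CPM in the 13 December pools (SD, n = 8) and 6.07 ± 6.64 CPM in the 12 December pools (SD, n = 24), and its contrasts differed by -5.30 on the log2 scale (edgeR adjusted p = 0.000554). The highest of the 8 pools of 13 December was at 6.502 CPM, below each of the single embryos 4, 6, 7 and 8. Row 163 gave 4.71 ± 2.63 against 8.31 ± 5.44 CPM and row 303, which parted all single embryos, 4.46 ± 2.32 against 4.58 ± 2.25 CPM (differences -4.05 and -2.98, edgeR adjusted p = 0.000578 and 0.0248). Among the falls, row 1394 was at 313 ± 21.4 CPM in the 13 December pools and 262 ± 39.4 CPM in the 12 December pools, and row 2047 at 99.8 ± 12.5 and 108 ± 68.2 CPM (differences 2.40 and 2.18, edgeR adjusted p = 0.000373 and 8.86e-05). Row 511, by contrast, was called in pools too, at 207 ± 18.03 against 139.7 ± 40.3 CPM (edgeR adjusted p = 0.0181), and the contrasts differed by -0.31 (edgeR adjusted p = 0.573).

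The order of rows in the table is the authors' and is not explained by the file. Of the 234 called rows 40 (17.1%) had a called row of either direction directly beside them, against 394 of the 2692 rows tested (14.6%), and 30 (12.8%) had one of the same direction. The share of all rows tested with a called neighbour of the same direction was not computed. Runs of at least 5 rows called in 1 direction, with gaps of at most 4, were singled out after their values were seen. How many such runs any order of the rows would give was not tested, and rows inside the gaps are not described. Rows 1469, 1470, 1472, 1473, 1474 and 1477 were all higher on 13 December. Rows 1472 and 1473 were highest in the same embryos as row 1469, at 182, 87.9, 115 and 198 CPM and 1369.8, 1135, 773 and 1074 CPM in embryos 4, 6, 7 and 8, against at most 42.6 and 441 CPM in the others of 13 December (log2 changes 1.82 and 2.00, edgeR adjusted p = 0.0115 and 0.00249). Row 1474 was highest in the same 4 embryos with a smaller gap (13 December against 12 December 7.01 to 79.3 CPM against 0.531 to 17.9 CPM, log2 change 2.56, edgeR adjusted p = 0.00259), and row 1477 was highest in embryo 4, at 34.01 CPM (log2 change 2.11, edgeR adjusted p = 0.0275). Row 1470 had another order: embryos 6 and 7 of 13 December held 11.9 and 9.74 CPM, below embryos 2, 3 and 5 at 25.4, 22.8 and 24.7 CPM. Without embryos 5 to 8 of batch 1, rows 1472 and 1477 were no longer called (edgeR adjusted p = 0.0517 and 0.0881), and the other 4 rows of this run were.

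Rows 2289, 2293, 2294, 2296, 2297 and 2299 were also all higher, and included abundant rows. Row 2289 held 6924 to 10276 CPM on 13 December (median 9149.5) and 4650.1 to 8834 CPM on 12 December (median 5857; 1.48-fold, edgeR adjusted p = 0.00259), and row 2296 held 17582 to 20717 CPM against 6734 to 16994 CPM (1.44-fold, edgeR adjusted p = 0.0229). The embryos did not follow 1 pattern across this run: row 2299 was low in embryos 4, 6 and 7 of 13 December, whereas rows 2289, 2293 and 2296 were not. With embryos 5 to 8 of batch 1 set aside, row 2289 had an edgeR adjusted p of 0.0152. Rows 560, 563, 565, 566 and 567 were all lower, by 1.36-fold, 1.42-fold, 2.98-fold, 3.84-fold and 1.79-fold. Rows 1103, 1105, 1108, 1111 and 1113 were lower by 2.25-fold, 1.64-fold, 1.82-fold, 3.896-fold and 3.77-fold. Each of these 10 falls was called by edgeR, with adjusted p-values from 0.0103 to 0.0418, and without embryos 5 to 8 of batch 1 rows 567 and 1105 were the ones still called (edgeR adjusted p = 0.0245 and 0.0355).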

How the data were processed

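Whole-embryo total RNA of 96 libraries was measured by TempO-Seq on a surrogate zebrafish panel, and the 24 single-embryo libraries are reported here. The authors deposited 1 table of raw counts (3183 rows, 96 sample columns, no gene or probe names), not normalized. Tools named in the submitters' processing notes include STAR 2.7.10a and RSEM 1.3.3, with bcl2fastq 2.20 and fastp 0.23.2, and DESeq2 1.31.15 is listed too. Genome build, annotation and counting step: each was not given in the sources used here. Since each row is read by its own probe, levels are compared between embryos within a row.

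Samples were grouped by their labels. Totals of the 24 libraries ran from 3336312 to 5343504 counts, and 16 rows were 0 in all of them. In none of 276 pairs were counts identical, and the lowest chi-square was 39.3 per degree of freedom. Counts were fitted with edgeR 4.0.16 in R 4.3.3 (filter on low counts by batch, TMM scaling, 3 batches as a factor without an intercept, quasi-likelihood F test, Benjamini-Hochberg adjustment over all 2692 rows, threshold 0.05). Log2 changes are batch 3 minus the mean of batches 1 and 2. SEs were derived from that fit. Folds are the fitted ratios of the higher to the lower exposure. Spread was tested with limma 3.58.1, using each embryo's absolute deviation in log2 CPM (prior count 2). Library values were compared by exact permutation (scipy 1.17.1), 8 against 16 embryos, without a batch term. DESeq2 1.42.0, other scalings, no filter, ranks, thinned counts, the replicate number as a block, a random batch effect, batch sums and left-out libraries were tried as alternatives. The scripts were tested on simulated data.

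The embryos, row lists and rules were chosen with earlier results of these data known. Named rows have a mean of at least 10 CPM in the higher exposure and are, by absolute log2 change, the 6 higher and 6 lower called rows shifted in most embryos, the 4 and 4 called rows driven by a few, the 3 and 3 uncalled rows driven by a few, the 3 and 3 called the same way in pools, up to 2 and 2 called between batches 1 and 2, and the 4 most abundant called rows shifted in most embryos. Rows without overlap, of the spread test, of runs in the table and of the third axis were chosen after their values were seen.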

Additional observations from a re-analysis of the deposited data

Results flagged for a closer look

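Over the 58 named rows and 3 library values, 183 groups of 8 embryos (1 batch each) were examined for an embryo far from the rest, and 19 were flagged, 9 high and 10 low. Rows were examined on the log2 scale and library values without a log. Chance alone flags about 1 group in 20.

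In batch 1 of 12 December the embryos apart were embryo 7 at 12.2 CPM in row 767 (high), embryo 8 at 11.7 CPM in row 2021 (high), embryo 1 at 39.5 CPM in row 1111 (low), and embryo 2 at 48.2 CPM in row 1108 and 8.21 CPM in row 321 (both low). In batch 2 embryo 7 was apart in 5 rows, high at 17.9 CPM in row 767, 749 CPM in row 1473 and 8834 CPM in row 2289, and low at 0.606 CPM in row 2012 and 28.2 CPM in row 1394. In each of these 5 rows it lay in the direction of the 13 December embryos. Embryo 8 of batch 2 was apart in 5 rows as well, high at 49.4 CPM in row 1040 and 1220.0 CPM in row 981, and low at 11270.0 CPM in row 2999, 11230.0 CPM in row 2297 and 8469 CPM in row 2296. In each of these 5 rows it lay away from the 13 December embryos. The other flags of batch 2 were embryo 1 at 33.6 CPM in row 579 and embryo 5 at 133 CPM in row 954, both low. In batch 3 of 13 December embryo 7 was high at 64.3 CPM in row 2047 and embryo 6 at 11.9 CPM in row 2599.

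In 15 of the 58 named rows the exposure contrast differed between pools and single embryos by edgeR's test of the difference (adjusted p below 0.05 over 2849 rows). The log2 difference, pools minus single embryos, was negative in rows that rose in single embryos. It was -5.30 in row 1469, -3.23 in row 305, -3.10 in row 1470, -4.27 in row 1555, -3.96 in row 2021, -4.05 in row 163, -2.98 in row 303, -2.004 in row 1472, -1.97 in row 1473 and -2.06 in row 1474. In rows that fell in single embryos it was positive, at 2.18 in row 2047, 2.40 in row 1394, 1.65 in row 1111, 1.78 in row 477 and 0.96 in row 992. Named rows were mostly chosen for a large single-embryo change, and pool size differs along with the contrast, so these values describe the rows. The fit also held 1 dispersion per row for pools and single embryos alike. Its p-values are too small where single embryos varied more.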

How the results depend on the processing

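Counts of called rows are given for the exposure contrast, batch 2 against 1, batch 3 against 1 and batch 3 against 2, which were 234, 3, 493 and 5. The exposure and batch 3 against 1 counts stayed within 1.5 times under DESeq2 (342 and 593), its size factors, no filter, robust dispersions, limma-trend, ranks and thinning. The batch 2 against 1 count was 111 under DESeq2, 5 with its size factors, 8 without a filter, 1 by limma-trend, 0 on ranks (limma, 572 at an unadjusted p below 0.05) and 6 after thinning. Batch 3 against 2 gave 49 under DESeq2, 16 by limma-trend and 0 on ranks (limma, 379 at an unadjusted p below 0.05).

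Without samples 5 to 8 of batch 1 the 4 counts were 66, 0, 16 and 29, without sample 8 of batch 2 as well 84, 0, 24 and 16, and without samples 7 and 8 of batch 2 as well 163, 0, 35 and 78 (edgeR; 144, 217 and 214 rows at an unadjusted p below 0.05 where the count was 0). The cause was not tested. For the exposure contrast the batch as a random effect gave 6 (limma) and the 3 batch sums 0, while no batch term gave 163. Leaving out 1 embryo at a time gave 112 to 295 for the exposure, 0 to 209 for batch 2 against 1, 333 to 566 for batch 3 against 1, 0 to 26 for batch 3 against 2 and 0 to 5 for the spread test. The spread test also gave 41 with deviations from the batch mean and 0 without samples 5 to 8 of batch 1 (limma, 151 at an unadjusted p below 0.05).

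Rows shifted in most embryos numbered 162 and rows driven by a few 66. With 2/3 of the difference kept they were 97 and 134, with all 8 and at least 15 of 16 embryos required 101 and 66, and without samples 5 to 8 of batch 1 57 and 7. The pool contrast (146 called) gave 259 under DESeq2, 89 without samples 5 to 8 of pool5 batch 1, and 88, 22 and 482 without pool5 batch 1, 2 and 3. The difference in rows detected, 134.9, was 63.7 with a minimum of 10 counts (exact permutation, adjusted p = 0.108), and the difference in total counts turned from -14036 to 23122 without samples 5 to 8 of batch 1, far within its spread.

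The replicate numbers did not pair embryos: over 24 pairs of same-numbered embryos in different batches the deviations correlated at a median of 0.014, with 3 pairs above 0.1. With the replicate number as a block edgeR called 205, 2, 504 and 1 rows, and 128 in pools. Over the 58 named rows 2204 alternative values were computed, of which 1850 kept direction and side of the threshold, 332 kept direction and lost the call, 19 gained a call and 3 turned. All 3 were row 78, not called between exposures, at -0.19 in the main analysis and 0.016, 0.052 and 0.0598 in the settings without samples 5 to 8 of batch 1. Rows near 0 on 12 December rest on few counts, so the size of their folds is uncertain.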
